A study of Mus musculus with 16 samples.

Results

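The genes described here encode the voltage-gated sodium channels of the brain. The 7 members were taken by gene symbol from the count table of mouse hippocampus: the alpha subunits Scn1a, Scn2a, Scn3a and Scn8a and the beta subunits Scn2b, Scn3b and Scn4b. They are 7 of the 54532 genes listed. RNA was sequenced from 16 mice, 4 in each of 4 groups. WT mice drank plain water. WT + NR mice received 6 mM nicotinamide riboside (NR), a precursor of NAD+, in the drinking water for 3 months. hTau.P301S mice carry a human Tau transgene with the P301S mutation under the neuronal Thy1 promoter and drank plain water, and hTau.P301S + NR mice carry the same transgene and received the same NR. By the sample labels the mice were 12 months old at the start and 15 months at the end. The study's text gives other ages and, in 1 of 2 places, another length of treatment, and no test used either. The comparisons ask whether the tauopathy model differed from WT, whether NR changed expression in either genotype, and whether the effect of NR differed between them.

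An alpha subunit forms the pore and the voltage sensor of the channel and can carry current on its own. Beta subunits are single-pass membrane proteins with an extracellular immunoglobulin domain that set the channel's gating and its place on the cell surface. Scn1a encodes Nav1.1, which is prominent in inhibitory interneurons. Scn2a encodes Nav1.2 of excitatory neurons, Scn3a the largely embryonic Nav1.3, and Scn8a Nav1.6, the main channel of the mature axon initial segment and nodes of Ranvier. The beta2 and beta4 subunits, from Scn2b and Scn4b, bind the alpha subunit covalently, while beta3, from Scn3b, binds it without a covalent bond. Scn4b is known for resurgent sodium current and for high expression in the striatum.

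The genes lie in clusters. On GRCm38 the table's Ensembl identifiers place Scn3a (ENSMUSG00000057182, minus strand) at chr2:65457118-65567627, Scn2a (ENSMUSG00000075318, plus strand) at chr2:65620771-65767447 and Scn1a (ENSMUSG00000064329, minus strand) at chr2:66270778-66440840. Scn8a (ENSMUSG00000023033, plus strand) stands alone at chr15:100869858-101045938. The beta genes are on chromosome 9, all on the plus strand: Scn3b (ENSMUSG00000049281) at chr9:40269217-40291618, Scn2b (ENSMUSG00000070304) at chr9:45117782-45130070 and Scn4b (ENSMUSG00000046480) at chr9:45138395-45154152. All 7 are annotated as protein coding, and none shares exon bases with another annotated gene on either strand. The exons of the alpha members cover 11146 to 15766 bases, and those of the beta members 4656 to 5461.

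Scn2b and Scn4b are neighbors, with 8324 bases and no protein-coding gene between them. Their start regions are shown because these adjacent genes, read in the same direction, had the smallest and the largest spread of all members over the 16 mice (SD of 0.32 and 1.09 in log2 CPM, the counts scaled to library size). Each sequence runs 5′ to 3′ from 250 bases before to 50 bases after the RefSeq start, with every CG dinucleotide in capitals (GRCm38.p6, plus strand, Scn2b at chr9:45117626-45117925 and Scn4b at chr9:45138374-45138673).
Scn2b: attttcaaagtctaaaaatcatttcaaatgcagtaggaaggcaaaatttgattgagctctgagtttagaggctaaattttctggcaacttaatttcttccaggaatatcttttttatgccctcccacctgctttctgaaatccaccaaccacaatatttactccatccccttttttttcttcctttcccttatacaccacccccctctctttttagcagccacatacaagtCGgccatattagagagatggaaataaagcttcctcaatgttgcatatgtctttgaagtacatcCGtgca
Scn4b: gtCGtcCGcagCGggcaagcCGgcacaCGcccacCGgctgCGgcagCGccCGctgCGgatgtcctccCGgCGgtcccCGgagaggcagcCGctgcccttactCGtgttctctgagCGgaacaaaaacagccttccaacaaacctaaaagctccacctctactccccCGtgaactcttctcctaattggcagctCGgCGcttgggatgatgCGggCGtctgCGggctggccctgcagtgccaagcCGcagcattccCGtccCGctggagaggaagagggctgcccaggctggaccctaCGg
The Scn2b window held 2 CG dinucleotides and 38.3% G or C, and the Scn4b window 26 and 66.3%. Over all 32851 windows of the RefSeq table the medians were 7 and 52.7%. The letters CCAAT, read on both strands, occurred in the Scn4b window and not in that of Scn2b, and were found in 37.4% of all windows. Neither TATAAA, held by 13.6% of all windows, nor GGGCGG, held by 35.7%, occurred in either. These matches are descriptions of the sequence and do not mark binding sites. Both RefSeq starts lie downstream of the gene starts given above. Part of the 250 bases before the Scn2b start, and most of those before the Scn4b start, therefore lie inside the annotated gene.

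Total counts ranged from 16490261 to 21915362 per mouse, and 253 to 7910 of them fell on a single member, so the counting error of a member's value was 1.12 to 6.29%. Thy1, the gene whose promoter drives the transgene, had 804 to 1639.9 CPM in hTau.P301S mice and 462 to 633 in WT mice. The human transgene itself has no row in the mouse table. No marker of the neuronal lists was at 0 in any mouse. Nonetheless, 4 libraries stood apart. hTau.P301S mouse 1 had 14.4% mitochondrial counts against 4.48 to 7.07% in the other 15 mice and 19467 genes detected against at least 22199. Its genes longer than 8 kb lay at a median of -0.95 on the log2 scale from their mean over mice, and those shorter than 2 kb at 1.21. WT mouse 2, WT + NR mouse 3 and hTau.P301S + NR mouse 4 were high in the markers of striatal medium spiny neurons. Of 10 such markers, 10, 8 and 10 in these libraries exceeded all of the 12 remaining mice, while all 5 excitatory markers were below all 12 in each of the 3. Other lists moved there too. Of 7 markers of GABAergic interneurons 4, 2 and 5 exceeded the 12 mice in these libraries, with summed levels of 1698, 1395 and 1554 CPM against 647 to 1382. Of 5 thalamic markers it was 0, 3 and 5, with sums of 163, 268 and 330.2 CPM against 82.0 to 180.4, and 241 in hTau.P301S mouse 1. The part of these cell types in the member values was not tested. Choroid plexus markers varied widely in all groups, with summed levels of 18.9 to 9776 CPM. The 12 remaining mice, called ordinary below, were not uniform either. Their sums were 19.8 to 9776 CPM for choroid plexus and 2751 to 9162 CPM for oligodendrocyte markers. Since these are bulk tissues, fewer cells of a type and less RNA per cell cannot be told apart. Group means are therefore given with and without these 4 libraries, a choice made after the data were seen.

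The alpha genes varied between single mice, and the groups overlapped in every comparison. Over 16 mice, 77.7% of 17537 genes had a smaller SD of log2 CPM than Scn2a, 68.9% than Scn8a, 56.8% than Scn1a and 39.0% than Scn3a. Over the 12 ordinary mice these shares were 38.9, 32.3, 59.2 and 42.2%. Scn2a CPM, normalized for library size by the trimmed mean of M values (TMM), was 241, 143, 327 and 287 in WT mice 1 to 4 and 227, 356, 195 and 287 in WT + NR mice. It was 43.8, 310.1, 276 and 305 in hTau.P301S mice and 333, 276, 403 and 299 in hTau.P301S + NR mice. The 3 lowest values belonged to hTau.P301S mouse 1, WT mouse 2 and WT + NR mouse 3, and all 4 groups overlapped. Group means were 249 ± 79.2 CPM in WT, 266 ± 70.8 in WT + NR, 234 ± 127 in the hTau.P301S group and 328 ± 55.2 in hTau.P301S + NR (SD, n = 4). Without the libraries that stand apart, they were 285 ± 42.7, 289.8 ± 64.3, 297 ± 18.4 and 338 ± 63.2 (SD, n = 3).

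Scn8a, the Nav1.6 gene, showed the same 3 low libraries. Its CPM was 305, 122, 365 and 378 in WT mice, 319, 381, 139.8 and 321 in WT + NR mice, 95.3, 325, 313 and 312 in hTau.P301S mice and 354, 248, 434 and 251 in hTau.P301S + NR mice. WT mouse 2 and WT + NR mouse 3 had less than the lowest of the 12 other mice, 248 CPM, as did hTau.P301S mouse 1. The 3 remaining hTau.P301S mice lay within 312 to 325 CPM. Mean Scn8a CPM was 293 ± 118 for WT, 290.3 ± 104 for WT + NR, 261 ± 111 for hTau.P301S and 322 ± 89.7 for hTau.P301S + NR (SD, n = 4). With the libraries that stand apart left out it was 349 ± 39.0, 340.5 ± 35.4, 317 ± 7.09 and 345 ± 93.3 (SD, n = 3).

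Scn1a, the Nav1.1 gene, varied more among the ordinary libraries. Values were 101, 80.1, 133 and 161 CPM in WT, 72.1, 148, 118 and 103 in WT + NR, 40.1, 147, 98.9 and 133 in the hTau.P301S group and 138, 115, 154 and 150.1 in hTau.P301S + NR mice. The lowest again came from hTau.P301S mouse 1, but the 3 libraries with high striatal markers lay within the range of the other 12 mice. Mean Scn1a CPM was 119 ± 35.8, 110.3 ± 31.5, 105 ± 47.5 and 139 ± 17.7 (SD, n = 4) in the same order of groups, and 132 ± 30.4, 108 ± 38.0, 126 ± 24.6 and 136 ± 19.7 (SD, n = 3) without the libraries that stand apart. Scn3a, the gene of the embryonic type of channel, ranged from 23.1 CPM in hTau.P301S mouse 1 to 77.5 in hTau.P301S + NR mouse 3. Its means were 54.3 ± 6.76 CPM in WT, 52.9 ± 8.03 in WT + NR, 44.4 ± 15.7 in the hTau.P301S group and 63.2 ± 13.5 in hTau.P301S + NR (SD, n = 4). Without the 4 libraries they were 57.4 ± 3.19, 54.7 ± 8.84, 51.6 ± 8.07 and 67.4 ± 13.0 (SD, n = 3).

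The beta genes differed in how evenly they were expressed. Scn2b, which encodes beta2, was 289, 348, 307 and 292 CPM in WT, 287, 331, 270.5 and 296 in WT + NR, 134, 285, 339.6 and 303 in the hTau.P301S group and 305, 336, 293 and 350.2 in hTau.P301S + NR mice. Apart from the 134 CPM of hTau.P301S mouse 1, all 15 values lay within 1.29-fold of each other, and over the 12 mice within 1.19-fold. Its group means, in the same order, were 309 ± 27.2, 296 ± 25.3, 266 ± 90.5 and 321 ± 26.4 CPM (SD, n = 4), and 296 ± 9.85, 305 ± 22.9, 309 ± 27.7 and 311 ± 21.9 (SD, n = 3) without the 4 libraries. Of 17537 genes, 0.867% had a smaller SD of log2 CPM over those 12 mice, and 28.0% over all 16 mice. Scn3b, the beta3 gene, had 248, 127, 206 and 239 CPM in WT, 273, 262, 124 and 213 in WT + NR, 195, 235, 261 and 288 in the hTau.P301S group and 254, 238, 318 and 140.4 in hTau.P301S + NR mice. Its 3 lowest values were those of the libraries with high striatal markers. Scn3b means were 205 ± 55.3, 218 ± 68.0, 245 ± 39.5 and 238 ± 73.5 CPM (SD, n = 4), and 231 ± 22.5, 249 ± 32.2, 261 ± 26.4 and 269.98 ± 42.6 (SD, n = 3) without the 4 libraries.

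Scn4b, the beta4 gene, spread most. It reached 344 CPM in WT mouse 2 and 164 in hTau.P301S + NR mouse 4, against 41.2, 17.7 and 55.3 in the other WT and 25.5, 42.5 and 24.1 in the other hTau.P301S + NR mice. WT + NR mice had 28.7, 35.1, 56.3 and 31.4 CPM and hTau.P301S mice 21.6, 38.6, 31.5 and 39.4. The 3 highest values of all 16 mice came from the libraries with high striatal markers, the third, at 56.3 CPM, barely above the 55.3 of WT mouse 4. Its highest and lowest values differed 19.5-fold over 16 mice and 3.13-fold over 12. The groups overlapped in every comparison. Scn4b means were 115 ± 154, 37.9 ± 12.6, 32.8 ± 8.23 and 64.0 ± 67.2 CPM (SD, n = 4), and 38.1 ± 19.0, 31.7 ± 3.23, 36.5 ± 4.31 and 30.7 ± 10.2 (SD, n = 3) without the 4 libraries.

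**Figure D1:**
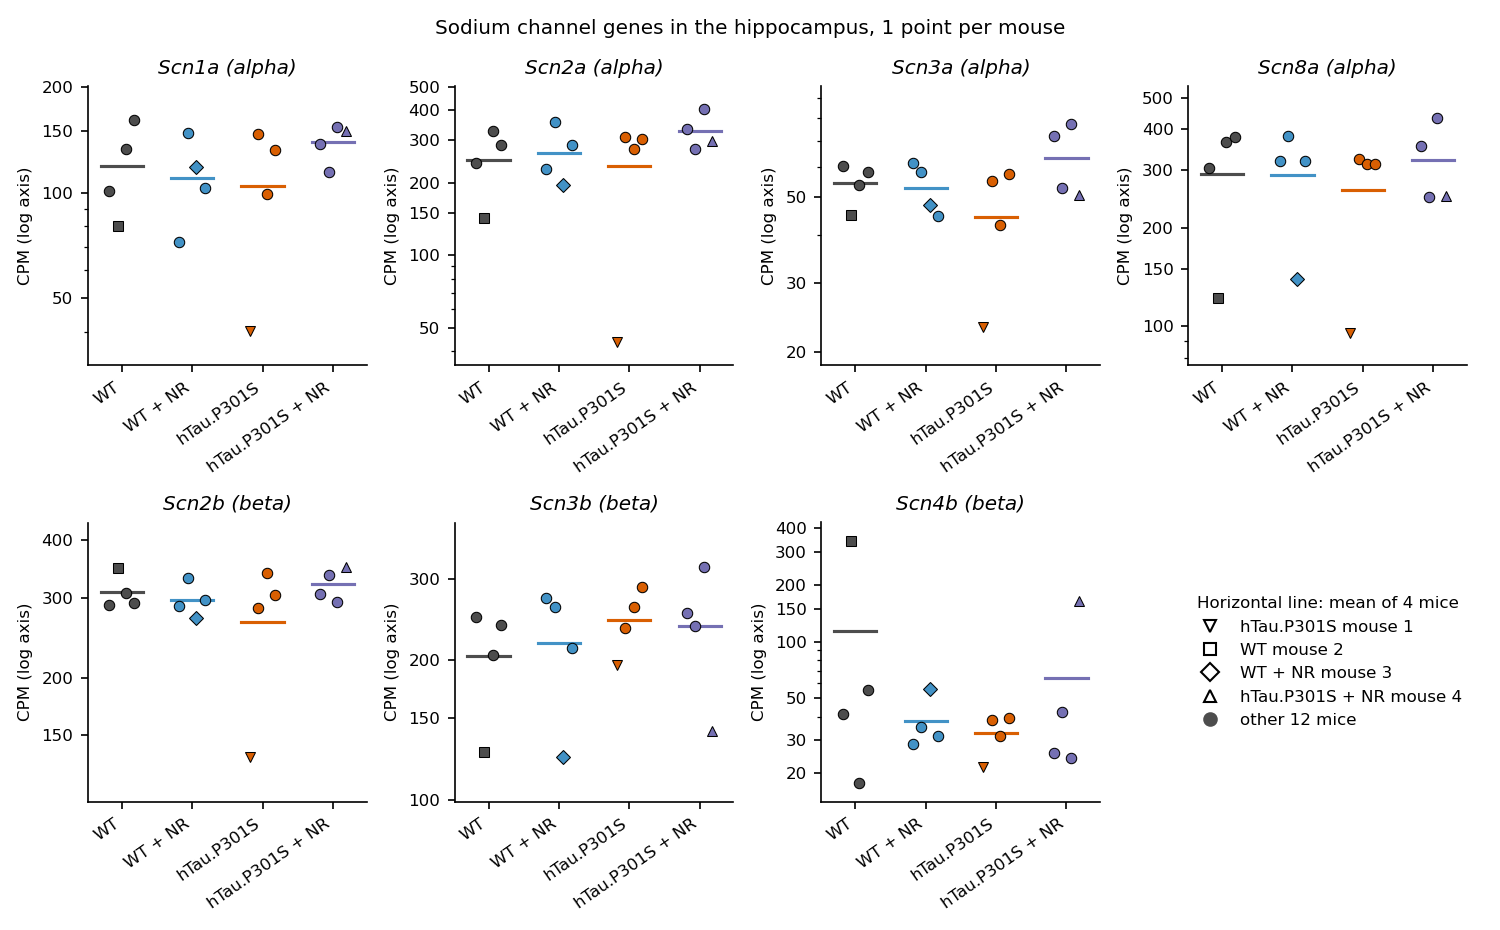
CPM (log axis) of each sodium channel gene in the 4 groups, with 1 point per mouse and a line at the mean of 4 mice; triangles, squares and diamonds mark the 4 libraries that stand apart. The groups overlap for every gene, hTau.P301S mouse 1 is lowest for all 4 alpha genes and Scn2b, and Scn4b reaches 344 CPM in WT mouse 2.

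Levels of different genes were compared per length of exon, as FPKM (CPM divided by exon length in kilobases). The order of the medians over 16 mice was Scn2b (64.3 FPKM), Scn3b (43.7), Scn2a (22.5), Scn8a (20.05), Scn1a (11.3), Scn4b (7.40) and Scn3a (4.37). The ranges of neighbors in this order overlapped, so the order was also read within each mouse. Scn2b exceeded Scn3b in 15 of 16 mice, the exception being hTau.P301S mouse 1, and Scn3b exceeded Scn2a in all 16. Scn8a exceeded Scn1a in 15, and Scn4b exceeded Scn3a in 13. The medians of Scn2a and Scn8a were within the spread of either gene, with Scn2a higher in 12 of 16 mice. Scn4b exceeded Scn1a in the 4 libraries that stand apart and in none of the other 12. Of the summed FPKM of the 4 alpha members, Scn2a made up 36.9 ± 2.2% in WT, 39.0 ± 2.0% in WT + NR, 35.5 ± 8.3% in the hTau.P301S group and 40.5 ± 1.2% in hTau.P301S + NR mice (SD, n = 4). For Scn8a these shares were 33.8 ± 5.2%, 33.7 ± 7.7%, 35.8 ± 3.6% and 31.7 ± 3.1%. Scn1a took 19.0 to 20.5% and Scn3a 7.9 to 8.8% on average in the groups. Thus the alpha make-up was alike in the group means, and its widest departures were in single mice. Scn2a took 23.1% in hTau.P301S mouse 1 and 34.3 to 41.8% in the 12 mice, and Scn8a 23.0% in WT + NR mouse 3 and 30.3 to 40.9% in the 12. Among the beta members, Scn4b took 41.4% in WT mouse 2, 24.6% in hTau.P301S + NR mouse 4 and 12.3% in WT + NR mouse 3, and 3.3 to 9.5% in the 12 mice.

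**Figure D2:**
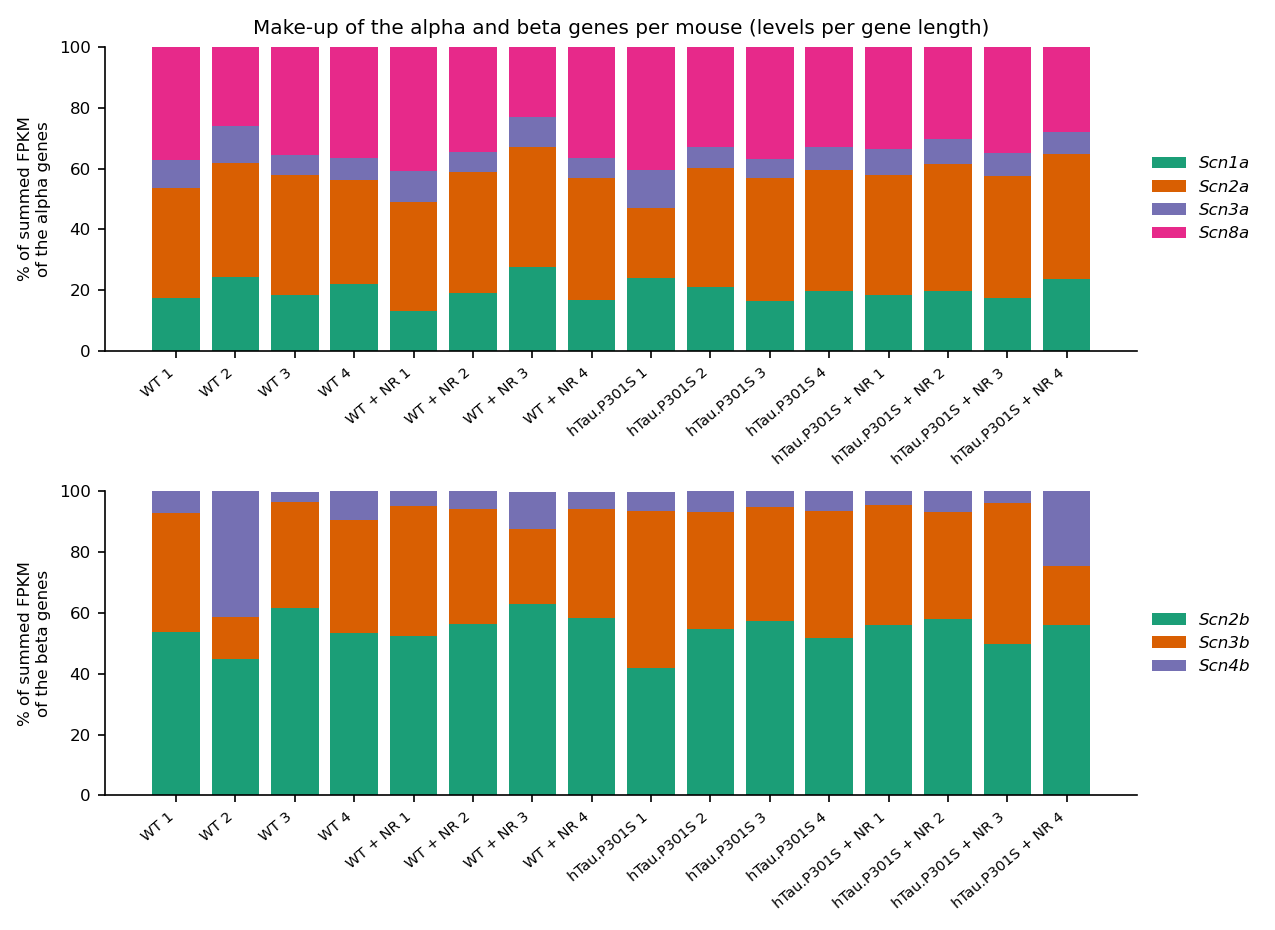
Share in percent of the summed FPKM taken by each alpha gene (top) and each beta gene (bottom), 1 bar per mouse. Scn2a and Scn8a together form most of the alpha total in every mouse, Scn2a alone takes 23.1% in hTau.P301S mouse 1, and Scn4b takes 41.4% of the beta total in WT mouse 2.

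In hTau.P301S against WT mice, no member was called (edgeR's quasi-likelihood test over 16375 genes, Benjamini-Hochberg adjusted p under 0.05 and log2 fold change beyond 0.5 in either direction). None had an unadjusted p under 0.05. DESeq2 also called 0 members, and 116 genes over all. In edgeR 0.00611% of all genes tested were called by the same rule and 7.14% had an unadjusted p under 0.05. In 6.24% the groups did not overlap, against 0 of 7 members. Estimates for the alpha members were -0.19 (SE 0.39) for Scn1a, -0.10 (0.53) for Scn2a, -0.29 (0.28) for Scn3a and -0.16 (0.45) for Scn8a on the log2 scale. Those of Scn2b and Scn3b were -0.22 (0.28) and 0.26 (0.25). The median of the 7 was -0.19, and that of all genes, of every length, 0.02. The 95% confidence interval of Scn2a ran from -1.31 to 1.11, which is wider than 1 log2 unit in either direction.

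The Scn4b estimate was the farthest from 0, at -1.81 (SE 0.83, adjusted p = 0.598 in edgeR). Its mean log2 CPM differed by -0.93 between the groups, with exact permutation p = 0.400 for that smaller difference. The summed markers of striatal medium spiny neurons were 237 to 2806 CPM in WT and 245 to 287 in hTau.P301S mice, and all 10 had negative estimates. The Scn4b estimate was -0.23 without WT mouse 2 and -0.07 without both WT mouse 2 and hTau.P301S mouse 1. Leaving out hTau.P301S mouse 1 alone moved the estimates of Scn1a, Scn2a and Scn8a to 0.08, 0.24 and 0.11.

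With NR in hTau.P301S mice, again no member was called in edgeR or DESeq2, and 0 of 7 had an unadjusted p under 0.05 or groups without overlap. Of all 16386 genes, 0.00610% were called in edgeR, 12.9% had an unadjusted p under 0.05 and 11.9% had groups without overlap. DESeq2 called 253 genes over all. All 4 alpha estimates were positive, at 0.41 (SE 0.35) for Scn1a, 0.49 (0.50) for Scn2a, 0.51 (0.29) for Scn3a and 0.30 (0.38) for Scn8a, with edgeR adjusted p-values of 0.390 to 0.681. The low hTau.P301S mouse 1 was part of these differences. Without it they were 0.15, 0.15, 0.30 and 0.03. The beta estimates were 0.27 (0.27) for Scn2b, -0.05 (0.26) for Scn3b and 0.96 (0.61) for Scn4b, the last being -0.10 without hTau.P301S + NR mouse 4. The median over the members was 0.41, and over all genes, of every length, -0.03. In hTau.P301S mouse 1 the genes longer than 8 kb lay at a median of -0.95 from their mean over mice. The part of gene length in this contrast was not tested. Two-sided exact permutation tests of the difference in mean log2 CPM gave p-values of 0.171 for Scn3a (difference 0.57) to 0.8 for Scn3b (-0.09). With 4 against 4 mice these tests cannot go below 0.0286, and 28 such tests were made over the members, all with Benjamini-Hochberg adjusted p-values of 0.857 or more.

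NR in WT mice left the estimates of the alpha members and of Scn2b and Scn3b close to 0, between -0.10 for Scn1a and 0.10 for Scn2a. For Scn2b the 95% confidence interval was narrow, from -0.32 to 0.20. For Scn8a it ran from -0.88 to 0.87. The Scn4b estimate of -1.59 (SE 0.81, adjusted p = 0.9999 in edgeR) was -0.01 without WT mouse 2. No member was called in edgeR or DESeq2, none had an unadjusted p under 0.05, and none had groups without overlap. Across 16714 genes edgeR called 0%, while 0.790% had an unadjusted p under 0.05 and 0.754% had groups without overlap, and DESeq2 called 3 genes.

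Between hTau.P301S + NR and WT + NR mice, all 7 estimates were positive, from 0.12 for Scn2b and Scn3b to 0.76 for Scn4b. Scn1a stood at 0.33 (SE 0.20), Scn2a at 0.30 (0.19), Scn3a at 0.25 (0.17) and Scn8a at 0.15 (0.30). No member was called by edgeR or DESeq2, had an unadjusted p under 0.05 or had groups without overlap. The corresponding shares of 16671 genes were 0.0540% in edgeR, 6.09% and 3.73%, and DESeq2 called 58 genes over all. The Scn2b interval, -0.12 to 0.36, was the narrowest. Scn4b was at -0.31 without hTau.P301S + NR mouse 4.

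The difference between both NR effects was tested over all 16 mice. At an adjusted p under 0.05 it called no member and 0% of 17555 genes in edgeR, where 7.92% had an unadjusted p under 0.05, and 17 genes in DESeq2, none of them a member. Of the 7, Scn4b had an unadjusted p under 0.05, with a difference of 2.56 (SE 1.09) and an adjusted p of 0.558. This difference was 0.99 without WT mouse 2 and 0.02 without all 4 libraries that stand apart. For the alpha members the differences were 0.31 to 0.54, with intervals that all included 0.

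**Figure D3:**
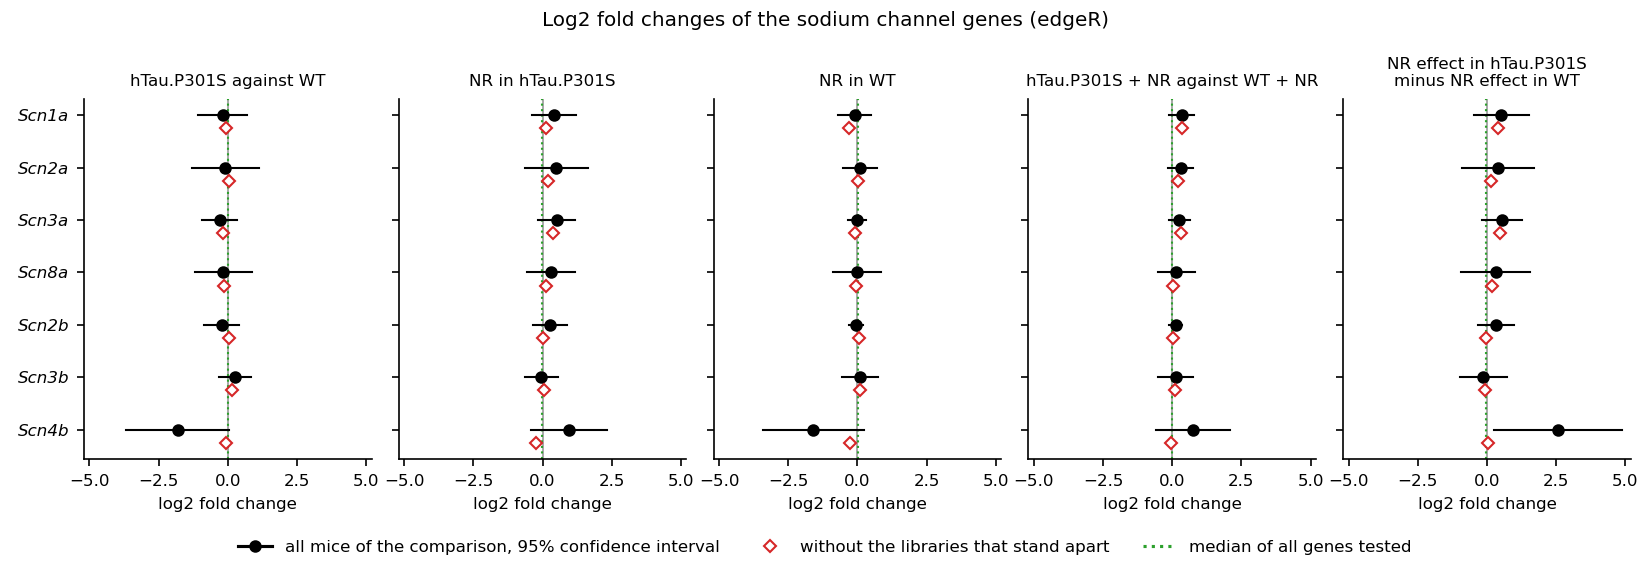
Log2 fold change of each sodium channel gene in the 4 comparisons and in the difference between the NR effects; black points are edgeR estimates with 95% confidence intervals, open diamonds the estimates without the libraries that stand apart, and the dotted line the median of all genes. All intervals include 0 except that of Scn4b in the last panel, whose diamond lies at 0.02.

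Single mice differed more than groups did. hTau.P301S mouse 1 had every alpha member, Scn2b and Scn3b below all of the 12 other mice. Relative to their median, Scn2a lay at -2.75 on the log2 scale, Scn8a at -1.76, Scn1a at -1.73 and Scn3a at -1.32. Genes of like length, 0.8 to 1.2 times that of the member, lay at medians of -1.12, -1.23, -1.01 and -1.11 in this mouse. Among the 989 genes of like length to Scn2a, 6.67% were lower still, and for Scn3a 40.7% of 1039. Beta genes are shorter, and there the differences were -1.16 for Scn2b, -0.62 for Scn4b and -0.36 for Scn3b, with medians of like genes of -0.26, -0.35 and -0.45. Of the genes of like length, 20.6% were lower than Scn1a, 22.5% lower than Scn2b, 25.6% lower than Scn8a, 40.7% lower than Scn4b and 52.9% lower than Scn3b. The mitochondrial share and the length trend of this library are given above, and their part in these values was not tested. With the length trend removed from all libraries, no member was called in any comparison.

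**Figure D4:**
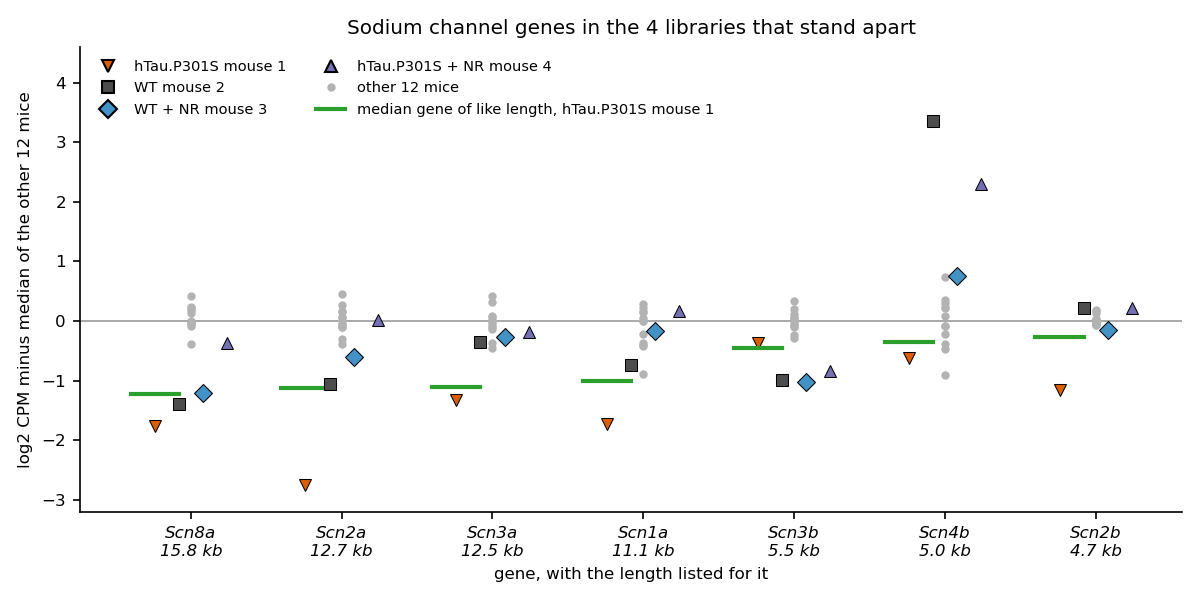
Log2 CPM of each sodium channel gene minus its median over the 12 ordinary mice (gray points), with colored symbols for the 4 libraries that stand apart and a green bar for the median gene of like length in hTau.P301S mouse 1; genes run from the longest to the shortest. In hTau.P301S mouse 1 Scn2a is at -2.75 and all 7 genes are below 0. In the other 3 libraries Scn4b is above all gray points, but barely so in WT + NR mouse 3.

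The 3 libraries with high striatal markers had a pattern of their own. Scn4b was at 344, 56.3 and 164 CPM in WT mouse 2, WT + NR mouse 3 and hTau.P301S + NR mouse 4, above the 12 mice in each. In WT + NR mouse 3 this was nearly a tie. The highest of the 12 mice had 55.3 CPM, and the counting error of the 56.3 CPM was 2.96%. The summed striatal markers stood at 2806, 625 and 1041 CPM there, against 237 to 397 in the 12 mice, and Scn4b followed the order of the marker sums. Scn3b was below the 12 mice in all 3 libraries, and Scn8a in WT mouse 2 and WT + NR mouse 3. The summed excitatory markers were 2333, 2097 and 3614 CPM, against 4377 to 7829 in the 12. Scn2b did not share this pattern, being above the 12 mice in WT mouse 2 and hTau.P301S + NR mouse 4 and below them in WT + NR mouse 3. Among the 12 ordinary mice, the correlation of Scn4b with the striatal sum was weak (Pearson r = 0.26, Spearman rho = 0.29), as were those of Scn8a (r = 0.29, rho = 0.11) and Scn3b (r = 0.36, rho = 0.47) with the excitatory sum. The part that tissue make-up had in the member values was not tested.

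**Figure D5:**
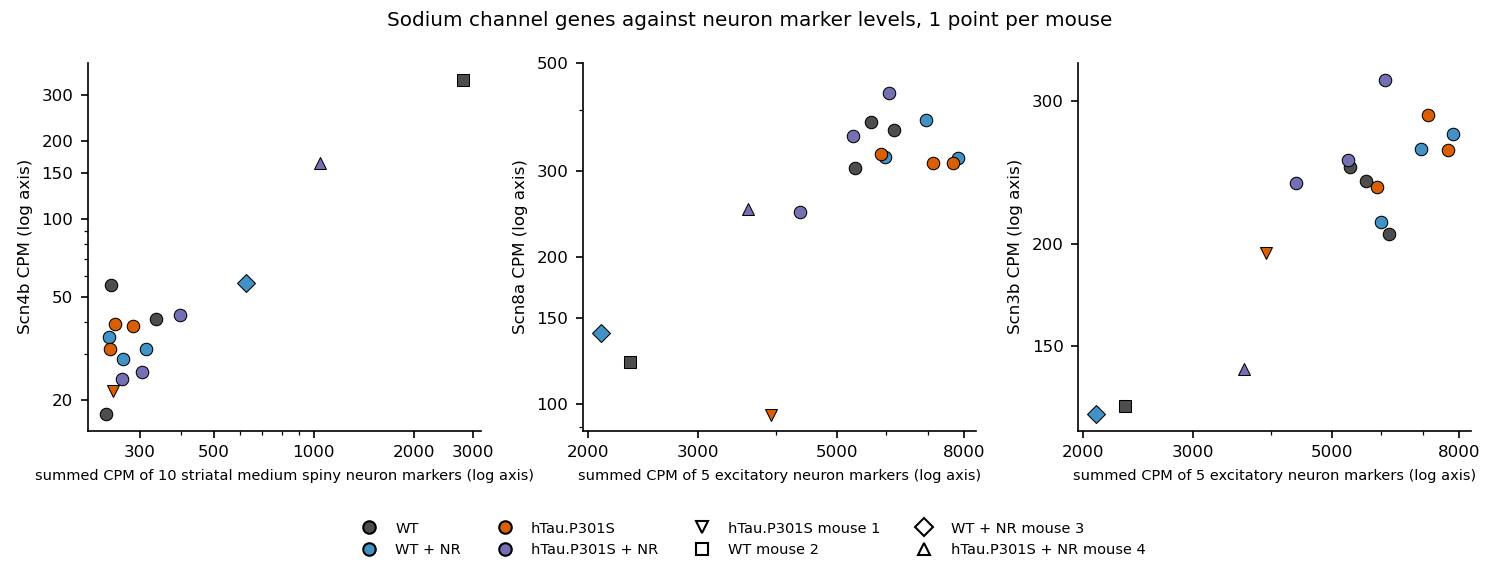
Scn4b against the summed CPM of 10 striatal medium spiny neuron markers and Scn8a and Scn3b against that of 5 excitatory neuron markers, on log axes, 1 point per mouse. The 3 libraries with the highest striatal sums hold the 3 highest Scn4b values, the third of them nearly tied with the next mouse. The 3 with the lowest excitatory sums hold the 3 lowest Scn3b values.

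Correlations among members depended on these libraries, and all values of a mouse share its library and depth. The median Pearson r of log2 CPM over the 21 pairs of members was 0.54 in 16 mice, 0.17 without hTau.P301S mouse 1 and 0.09 without all 4. The pairs among Scn1a, Scn2a and Scn8a were positive with and without these libraries. Scn2a and Scn1a had r = 0.89 and rho = 0.78 over 16 mice and r = 0.80 and rho = 0.76 over 12. Scn2a and Scn8a had r = 0.88 and 0.68, with rho of 0.82 and 0.75. Scn1a and Scn8a had r = 0.71 and 0.55, with rho of 0.67 and 0.78. Scn3b and Scn4b ran opposite over 16 mice, with r = -0.69, and had r = 0.04 over the 12. For the neighbors Scn2b and Scn4b, r was 0.39 and -0.02.

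The genes most like each member over the 16 mice, by Pearson r of log2 CPM, followed the same lines. Scn2a was closest to Zyg11b, Htt and Ppm1l (r = 0.99 each, rho = 0.95, 0.96 and 0.87). Scn8a was closest to Nbea (r = 0.99), Sptan1 and Celf2 (0.98 each), with rho of 0.88, 0.89 and 0.92, and Scn1a to Ttc39b (0.98), Dennd5b (0.97) and Myo5a (0.96), with rho of 0.96, 0.93 and 0.91. For Scn3a they were Gm19026, Dtna (0.96 each) and Zbtb21 (0.95), with rho of 0.86, 0.86 and 0.78. Gm19026 was barely expressed, at 0 CPM in hTau.P301S mouse 1 and at most 2.02 CPM. Scn2b was nearest to Phactr1, Rnf44 and Tm9sf4 (0.96 each, rho 0.78, 0.67 and 0.73), but over the 12 ordinary mice these r were 0.47, 0.49 and 0.41. Scn3b was nearest to Ppp3ca, the catalytic subunit of calcineurin (0.97), Neurod2, a neuronal transcription factor (0.95), and Epha4, an ephrin receptor (0.95), with rho of 0.99, 0.83 and 0.88. Over the 12 mice these r were 0.95, 0.54 and 0.65. For Scn4b the closest was Rgs9 (r = 0.93, rho = 0.69), itself one of the striatal markers, then Cd4 (0.92, 0.75) and Ngef (0.91, 0.68). Over the 12 mice these r were 0.40, 0.30 and 0.62. Cd4 was expressed at a low level, from 0.085 to 10.0 CPM over the 16 mice.

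Among the other genes of the sodium channel complex, 27 were listed and 23 tested in each comparison of 2 groups: further channel subunits or relatives, FGF homologous factors that bind the channel's tail, proteins of the axon initial segment and node, and regulators. None was called in any comparison, and 24 were tested for the difference between NR effects. In hTau.P301S against WT mice, 3 had an unadjusted p under 0.05, all lower: Scn9a, Fgf11 and Sptbn4. The median over the 23 was -0.08. With NR in hTau.P301S mice, 3 were higher, Scn9a and Fgf12 among them, and 2 lower. Fgf12 and Scn11a were named after their values were seen. NR in WT mice gave 0, hTau.P301S + NR against WT + NR gave 1 higher (Fgf12) and 1 lower, and the difference between the NR effects gave 2 higher (Scn11a and Fgf11) and 2 lower. Each count, of 23 genes or of 24 for the difference between NR effects, belongs beside the share of all genes in its own comparison. Those shares with an unadjusted p under 0.05 were 7.14% for hTau.P301S against WT and 12.9% for NR in hTau.P301S. They were 0.790% for NR in WT, 6.09% for hTau.P301S + NR against WT + NR and 7.92% for the difference between NR effects.

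Scn9a, which encodes Nav1.7 of sensory neurons and lies 39239 bases from Scn1a, was expressed at a low level, with 1.91 to 18.8 CPM. It had 5.04, 11.8, 5.91 and 2.92 CPM in WT and 2.14, 2.75, 1.91 and 2.27 in hTau.P301S mice, without overlap. In hTau.P301S + NR mice it had 5.96, 7.72, 6.27 and 5.93, also without overlap with hTau.P301S mice. Over all genes, 6.24% and 11.9% had groups without overlap in these comparisons. The WT + NR mice had 2.26, 2.35, 18.8 and 2.93. Its log2 fold changes were -1.496 (SE 0.43, adjusted p = 0.598) for hTau.P301S against WT and 1.504 (SE 0.23, adjusted p = 0.260) for NR in hTau.P301S, both from edgeR. The 11.8 and 18.8 CPM belong to libraries with high striatal markers.

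Fgf11, an intracellular FGF homologous factor, was lower without overlap in hTau.P301S mice (10.3 to 24.1 CPM) than in WT mice (24.9 to 51.5 CPM), with a log2 fold change of -0.95 (SE 0.33, edgeR adjusted p = 0.598). Sptbn4, the beta-IV spectrin that anchors channels at the initial segment, was at 149 to 187 CPM in hTau.P301S mice against 194 to 281 in WT mice. The log2 fold change was -0.49 (SE 0.20, edgeR adjusted p = 0.598). Calm2, 1 of 3 calmodulin genes and the regulator with the smallest unadjusted p in this comparison, stood at 0.52 (SE 0.32, edgeR adjusted p = 0.598), with 3068 CPM in hTau.P301S mouse 1 and 1203 to 1599 in the other 3.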

How the data were processed

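Hippocampal mRNA from 16 mice was sequenced. Per the labels and the study's methods, the authors checked reads with FastQC, trimmed them with Trim Galore, aligned them with STAR to mm10 and quantified genes with RSEM, and they deposited whole-number counts per gene with a gene length. The strand setting is not given in the sources used here. Two-group comparisons were fitted on the deposited counts in edgeR 4.0.16 (TMM, filterByExpr, quasi-likelihood test), and the difference between NR effects over all 16 mice, with DESeq2 1.42.0 as an alternative. FPKM used the deposited length, which equaled the union of exons in GENCODE for 98.0% of genes and all members. Log2 CPM had a prior count of 2. Exact permutation tests were two-sided and compared mean log2 CPM between groups, not the edgeR estimates. The fits were tested on data simulated from the spread of the WT and WT + NR mice. No length trend or shift of markers in single libraries was simulated. The simulation therefore cannot show how the fits behave with the libraries that stand apart. Genes named beside the members were the 3 most correlated with each, Scn9a and the gene of each other list with the smallest unadjusted p in hTau.P301S against WT, and some genes of these lists are not reported here. The members and lists were chosen with earlier results of these data known. Labels do not say that mice came from separate litters or batches. Same-numbered mice are different animals, and their deviations from group means correlated at -0.54 to 0.29. Such deviations sum to 0 within 4 mice, so these values cannot show whether a number marks a shared litter or batch. The main fits treated the mice as unpaired. The counting error given for a member's value leaves out the spread between mice. The confidence intervals of log2 fold changes come from the edgeR fits and include that spread.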

Additional observations from a re-analysis of the deposited data

Results flagged for a closer look

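In 28 sets of 4 mice (7 genes in 4 groups), 4 had 1 mouse far from the other 3 by Dixon's test at the 95% level, a test that chance alone passes in about 1 of 20 sets. Scn2a was lowest in hTau.P301S mouse 1, at 43.8 CPM. Scn8a was also lowest there, at 95.3 CPM. Scn4b was highest in WT mouse 2, at 344 CPM, and in its own group in hTau.P301S + NR mouse 4, at 164 CPM. The first library has the high mitochondrial share and the other pair the high striatal markers described above, and the part of either in these values was not tested.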

How the results depend on the processing

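No member was called under any alternative, and the smallest adjusted p of a member was 0.142 (Scn4b, hTau.P301S against WT, DESeq2 with all 4 groups). Leaving out 1 mouse changed the sign of 29 of 336 estimates. The ranges for hTau.P301S against WT were -0.42 to 0.078 for Scn1a, -0.30 to 0.24 for Scn2a and -0.44 to 0.11 for Scn8a. For NR in hTau.P301S they were -0.21 to 0.14 for Scn3b and -0.10 to 1.251 for Scn4b. For NR in WT they were -0.27 to 0.082 for Scn1a, -0.10 to 0.25 for Scn2a, -0.13 to 0.046 for Scn3a, -0.27 to 0.22 for Scn8a and -0.088 to 0.29 for Scn3b. For hTau.P301S + NR against WT + NR they were -0.080 to 0.31 for Scn8a, -0.068 to 0.31 for Scn3b and -0.31 to 1.04 for Scn4b, and for the difference between NR effects -0.33 to 0.053 for Scn3b. With the length trend removed, hTau.P301S against WT gave 0.048 for Scn2a and 0.12 for Scn8a, NR in hTau.P301S -0.12 for Scn8a and the difference between NR effects -0.11 for Scn8a. Without all 4 libraries that stand apart, an alternative added after the data were seen, hTau.P301S against WT gave 0.047 for Scn2a and 0.048 for Scn2b, NR in hTau.P301S 0.051 for Scn3b and -0.24 for Scn4b, and the difference between NR effects -0.030 for Scn2b. Without only the 3 with high striatal markers, NR in WT gave 0.040 for Scn2b, hTau.P301S + NR against WT + NR -0.045 for Scn4b and the difference 0.025 for Scn3b. The cause of these sign changes was not tested.

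With the replicate number as a block, no member's call changed. Scn8a with NR in WT stood at 0.014, and Scn4b at -0.89 for hTau.P301S against WT and 1.73 for the difference between NR effects. Counts over all genes moved more. For hTau.P301S against WT, edgeR called 1 gene, 5 with no filter, 9 with the length trend removed, 3 with the block, 36 with all 4 groups, 23 without the libraries that stand apart and 1 to 14 without 1 mouse (14 without hTau.P301S mouse 1), while DESeq2 called 116, and 492 with all 4 groups. For NR in hTau.P301S the counts were 1, then 0 with the block, 2 with all 4 groups, 2 without the libraries that stand apart and 0 to 33 without 1 mouse (33 without hTau.P301S mouse 1), and 253 and 245 in DESeq2. For NR in WT DESeq2 called 3 in both fits, against 0 in edgeR. For hTau.P301S + NR against WT + NR edgeR called 9, then 15 with no filter, 4 with the block, 28 without the striatal libraries and 8 to 31 without 1 mouse (31 without WT + NR mouse 3), and DESeq2 58 and 25. For the difference between NR effects they were 0 in edgeR, 0 to 1 without 1 mouse, and 17 in DESeq2. With 4 mice a group, the width of each member's 95% confidence interval limits what could be seen. In comparisons of 2 groups it ran from -0.12 to 0.36 for Scn2b in hTau.P301S + NR against WT + NR, the narrowest, and from -3.68 to 0.06 for Scn4b in hTau.P301S against WT, the widest.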
